A study of Mus musculus with 4 samples.

Results

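Non-classical, or patrolling, monocytes were examined in single-cell RNA from dissociated mouse lung tumours. A cell was taken as a member if it held at least 3 UMIs (unique molecular identifiers, 1 per captured RNA molecule) of Ace plus Treml4 and at least 1 of Csf1r. Cells with more than 2 UMIs of the alveolar macrophage genes Ear1, Atp6v0d2 and Krt79, with 10 or more of C1qa, C1qb and C1qc, or with any of Cdh5, Cd3e, Cd79a or Epcam were not members. The rule was applied to the 2 libraries made before immune cells were depleted, and it found 110 members among 13531 kept cells. Of these, 72 were in the library labelled vehicle and 38 in the library labelled tamoxifen. The values of Ace, Treml4 and the excluded genes chose the members, so they are given below as a description only.

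All 4 libraries of the study came from mice that carried p53frt, Rosa-FSF-CreERT2 and Hnf4aflox, so the controls had the same genotype. Tumours were started by intubation with Ad mSPC-FlpO, an adenovirus that drives the FlpO recombinase from a surfactant protein C promoter. FlpO recombines frt sites in the infected epithelium and there switches on the tamoxifen-dependent CreERT2, so monocytes were not the targeted cells. Tamoxifen or vehicle (called ethanol in 1 label and corn oil in another) was injected 10 weeks after intubation, and tumours were collected 2 weeks later. Part of each suspension was frozen before depletion, the rest was passed over CD45 and CD31 beads, and live cells were sorted by DAPI after thawing. The ages of the mice and the numbers of animals and tumours in a suspension are not given in the sources used here. Each group has 1 library, so there is no replicate check of any difference between libraries, no p-value was computed, and all intervals below are 95% intervals that cover counting error only.

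The 4 libraries held from 6558 to 7867 barcodes and from 92644997 to 144994771 UMIs. From 6227 to 7511 cells per library passed the filter (200 or more genes, mitochondrial share of UMIs up to 20%) and were kept. Pairs of libraries shared from 10 to 18 barcodes, and 1 member barcode of the tamoxifen-labelled library also occurred in the vehicle-labelled pre-depletion library. Hnf4a, the floxed gene, had no UMI in any member. In all other kept cells of the pre-depletion libraries Hnf4a stood at 18.5 CPM (UMIs scaled to 1e+06 per group of cells) in the vehicle-labelled library and at 34.8 CPM in the tamoxifen-labelled one, which goes against the label. Whether the counted 3′ ends of Hnf4a lie in the floxed exons is not given in the sources used here. Directions below therefore refer to the library labels and say nothing of loss of Hnf4a.

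Non-classical monocytes descend from classical, Ly6C-high monocytes and circulate for longer. They crawl along the inner wall of small blood vessels, held by the integrin LFA-1, and clear debris and damaged endothelial cells. The nuclear receptor Nr4a1 is needed for their formation, and Cx3cr1, the receptor of fractalkine, favours their survival. The lung capillary bed holds many of them. In mice they carry little Ly6c2 and Ccr2 and much Cx3cr1, Fcgr4 (CD16-2), Spn (CD43) and Adgre4, and Cd274 (PD-L1) is among their surface proteins.

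Members were read at 703490 UMIs in the vehicle-labelled library and 309501 UMIs in the tamoxifen-labelled library. A member held a median of 8391 UMIs (range 1915 to 58147) in the former and 7302 UMIs (range 2026 to 16421) in the latter. The median mitochondrial share was 1.87% and 1.82%. Depth per member was thus close in both libraries, but the pooled depth of the tamoxifen-labelled members was the lower, and its intervals are the wider.

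The label was checked against 5 marker genes that the rule did not use, namely Cx3cr1, Fcgr4, Spn, Adgre4 and Eno3. At least 3 UMIs of these were present in 63 of 72 vehicle-labelled members and in 36 of 38 tamoxifen-labelled members, and none in 6 and 1. A member carried a median of 13 and 14.5 UMIs of the 5 genes. Single genes were less even: Fcgr4 had a UMI in 44 of 72 and 18 of 38 members. The 7-gene marker list that also holds Ace and Treml4 had a median of 21 and 20 UMIs in members. It had 5 and 6 in C1q-high macrophages and 2 and 2 in classical monocytes. Part of that gap was set in advance, since Ace and Treml4 chose the members. The groups compared were held to under 3 UMIs of Ace plus Treml4. Markers of platelets (Pf4, Ppbp, Gp9, Itga2b, Gp1bb and Treml1) and of mast cells and basophils were at 0 in all members.

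Transcripts of other cell types were present in some members. At least 10 UMIs of the neutrophil genes S100a8, S100a9, Retnlg, Csf3r, Cxcr2, Mmp9 and G0s2 were found in 15 of 72 vehicle-labelled members, which held 19.8% of the member UMIs, and in 4 of 38 tamoxifen-labelled members, which held 10.9%. At least 3 UMIs of the independent markers were also present in 9 of these 15 and 2 of these 4 cells. At least 10 UMIs of the fibroblast genes Col1a1, Col1a2, Col3a1, Dcn and Pdgfra were found in 2 vehicle-labelled members, the deepest of all with 58147 and 42517 UMIs, and in none of the tamoxifen-labelled members. These 2 cells held 14.3% of the vehicle-labelled member UMIs. Whether such cells were doublets was not tested further; Scrublet, a doublet caller, gave a score above 0.25 to 1 member. Main results that rest on summed UMIs were also computed for the 55 and 34 members left after removing the cells above, here called the trimmed members, and are given where they bear on a count or value. The trimming was chosen after the data were seen.

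**Figure D1:**
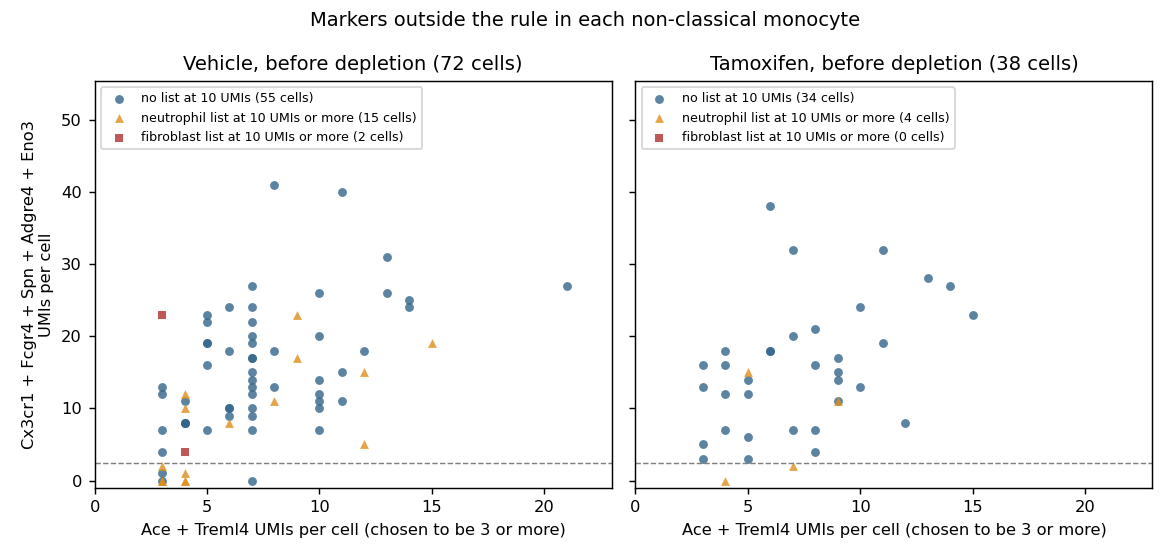
Each point is 1 member, with its Ace plus Treml4 UMIs on the horizontal axis and its summed UMIs of Cx3cr1, Fcgr4, Spn, Adgre4 and Eno3 on the vertical axis, in the vehicle-labelled (72 cells) and tamoxifen-labelled (38 cells) libraries. The dashed line separates cells with under 3 UMIs of the 5 genes, and triangles and squares mark members with 10 or more neutrophil or fibroblast UMIs. Under the line lie 6 of the 15 and 2 of the 4 members with neutrophil transcripts.

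Other marker lists were read in the same cells. Classical monocyte markers summed to 2536 and 698 CPM, markers of C1q-high macrophages to 1194 and 727 CPM and alveolar macrophage markers to 286 and 827 CPM, with medians of 1.5 and 1.5, 5 and 3, and 1.5 and 3.5 UMIs per member. In trimmed members these sums were 1077 and 689, 1340 and 743, and 306 and 816 CPM. The 2 members with fibroblast transcripts held 585 and 596 of the 1784 vehicle-labelled UMIs of classical markers. Chil3, which classical monocytes also hold, gave 125 of 201 and 204 of 256 UMIs of the alveolar macrophage markers. At least 3 UMIs of dendritic cell markers were present in 7 and 1 members and at least 3 of T cell markers in 2 and 0. Of the 7 endothelial markers, which summed to 264 and 330 CPM, Pecam1 gave 263 and 323 CPM. Egfl7 had a UMI in both libraries and Emcn in the tamoxifen-labelled one only. Cldn5, Kdr and Tie1 were at 0, as was Cdh5 by the rule. Surfactant transcript Sftpc, an epithelial product, gave at least 1 UMI in 67 of 72 and 33 of 38 members, and 1 tamoxifen-labelled cell held 94 of the 197 Sftpc UMIs there.

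Both genes of the rule were usually seen together. Ace and Treml4 were both present in 59 vehicle-labelled and 30 tamoxifen-labelled members, Ace without Treml4 in 5 and 6, and Treml4 without Ace in 8 and 2. Ace, the angiotensin-converting enzyme, stood at 387 CPM (342 to 435) and 527 CPM (449 to 614). Treml4, a receptor that binds dying cells, stood at 353 CPM (310 to 399) and 365 CPM (301 to 439). Of the members with Treml4 alone, 6 of 8 and 2 of 2 had 10 or more neutrophil UMIs, and their median count of independent markers was 0 and 1. Of the 7 members with none of the independent markers, 6 lacked Ace. Treml4 without Ace thus was the rule for most of the members that lacked the markers.

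Cells just inside and just outside the threshold were compared without a test. Over both libraries, the 29 cells that met every other condition with 2 UMIs of Ace plus Treml4 had 209 CPM of Adgre4, 135 CPM of Spn and 124 CPM of Fcgr4. The 14 cells with 3 UMIs had 226 CPM of Adgre4, 77.6 CPM of Spn and 70.6 CPM of Fcgr4. Cells with 2 UMIs also held 2852 CPM of S100a8 and 4892 CPM of S100a9, against 141 and 184 CPM with 3 UMIs. Cx3cr1 stood at 73.4 CPM with 2 UMIs and 247 CPM with 3. The libraries went opposite ways for Spn, with 152 CPM at 2 UMIs and 18.3 CPM at 3 in the vehicle-labelled one (20 and 10 cells) and 48.2 and 277 CPM in the tamoxifen-labelled one (9 and 4 cells). S100a8 stood at 1187 CPM at 2 UMIs and 183 CPM at 3 in the former, and at 11568 CPM and 0 UMIs in the latter. The 9 tamoxifen-labelled cells with 2 UMIs had no UMI of Cx3cr1 or Eno3. With so few cells the values on either side of the threshold differed between libraries, and both pooled values of Adgre4 lay below the level of all members.

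Promoter windows are shown for genes that define or lead the members' profile. Of 24 genes (Ace, Treml4, Cx3cr1 and Fcgr4, plus the 20 that lead against other myeloid cells, named below and including the neutrophil transcript G0s2), 19 were in the RefSeq promoter table (GRCm38.p6), with 23 windows of 300 bases from 250 before to 50 after a transcription start. The windows were searched on both strands for 4 motifs, none of which contains another. The PU box GAGGAAGT, bound by the myeloid factor PU.1 (Spi1), was in 4 of the 23 windows, against 3.20% of all 32851 windows in the table. Those 4 belonged to Fcgr4, Adgre4, Cd300ld and 1 of the windows of Chn2. The NBRE AAAGGTCA, the motif of Nr4a1, was in 0 of 23 windows (1.51% of all), the octamer ATGCAAAT of Pou2f2 in 0 (1.74% of all), and the palindrome TTGCGCAA of Cebpb in 0 (0.183% of all). A match is a description of letters and not evidence of a bound site. In the sequences below, 5′ to 3′ on the gene's strand, capitals mark the PU box or its reverse complement. Their positions are chr1:171018676-171018975 on the plus strand for Fcgr4, chr17:55749734-55750033 on the plus strand for Adgre4 and chr11:114989837-114990136 on the minus strand for Cd300ld.
Fcgr4: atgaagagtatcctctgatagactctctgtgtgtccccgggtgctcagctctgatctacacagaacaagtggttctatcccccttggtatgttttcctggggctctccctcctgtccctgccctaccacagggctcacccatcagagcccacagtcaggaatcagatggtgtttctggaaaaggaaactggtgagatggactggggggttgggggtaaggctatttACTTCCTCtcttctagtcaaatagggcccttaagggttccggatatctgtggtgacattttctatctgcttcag
Adgre4: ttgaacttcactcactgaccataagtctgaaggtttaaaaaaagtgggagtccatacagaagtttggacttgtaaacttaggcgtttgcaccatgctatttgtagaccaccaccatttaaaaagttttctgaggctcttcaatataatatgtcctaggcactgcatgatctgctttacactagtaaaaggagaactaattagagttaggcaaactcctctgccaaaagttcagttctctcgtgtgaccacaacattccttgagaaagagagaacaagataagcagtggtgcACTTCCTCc
Cd300ld: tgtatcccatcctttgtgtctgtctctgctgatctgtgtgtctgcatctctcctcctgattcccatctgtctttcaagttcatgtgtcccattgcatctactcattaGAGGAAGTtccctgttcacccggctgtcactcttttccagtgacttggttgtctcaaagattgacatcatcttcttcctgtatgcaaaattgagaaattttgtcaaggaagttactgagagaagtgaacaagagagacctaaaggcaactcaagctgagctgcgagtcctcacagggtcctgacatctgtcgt

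Other groups of myeloid cells in the same libraries served for comparison. They were 42 and 44 classical monocytes (Ly6c2 and Ccr2 both present), 449 and 311 C1q-high macrophages and 588 and 694 alveolar macrophages in the vehicle-labelled and tamoxifen-labelled libraries. All were chosen by their own marker genes from the same cells and had under 3 UMIs of Ace plus Treml4. Classical monocytes also had at least 3 UMIs of Ly6c2 plus Ccr2, at least 1 of Csf1r, and no Siglech, Flt3 or Ncr1. They met the members' limits on the C1q and alveolar macrophage genes. Cells that resemble members were thus kept out of the groups compared, so the ratios to them describe the groups and test nothing. In what follows, values come in the order vehicle-labelled, tamoxifen-labelled. A gene was counted as above or below classical monocytes if it reached 50 CPM in either group and lay 2-fold or more to one side in both libraries. By that rule members were above classical monocytes for 175 of 3659 genes (4.78%) and below for 114 (3.12%).

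All 16 of 16 genes of an identity list for non-classical monocytes were above classical monocytes, against 4.78% of all genes, and also in the trimmed members. Their median log2 ratio was 2.55 and 3.00, beside 0.00 and 0.04 over all genes considered. Genes with 0 UMIs in classical monocytes do not set this median, since each stays above it when placed at the limit that 3 UMIs give. The list was drawn up with earlier results of these data known.

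Surface receptors are given first. Adgre4, an adhesion receptor of the EGF-TM7 family (chromosome 17, 55749984 to 55853662, plus strand, GRCm38), stood at 557 CPM (503 to 615) and 843 CPM (744 to 952) in members. It stood at 94.8 and 55.9 CPM in classical monocytes and at 3.65 and 2.95 CPM in C1q-high macrophages. Spn, the sialomucin CD43 (chromosome 7, 127132232 to 127137823, minus strand), stood at 279 CPM (241 to 320) and 397 CPM (330 to 474), against 46.4 and 70.4 CPM in classical monocytes. For both genes the intervals of members and classical monocytes lay apart in each library.

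Fcgr4, the low-affinity IgG receptor (chromosome 1, 171018920 to 171029761, plus strand), stood at 208 CPM (175 to 244) and 152 CPM (112 to 202) in members. Classical monocytes had 18.2 and 31.1 CPM, C1q-high macrophages 72.5 and 79.9 CPM and alveolar macrophages 45.8 and 60.9 CPM. Fcgr4 was therefore highest in members in both libraries. Cx3cr1 (chromosome 9, 119901616 to 120069879, minus strand) was not. It stood at 198 CPM (166 to 233) and 204 CPM (156 to 260) in members, above the 90.8 and 72.5 CPM of classical monocytes but below the 335 and 393 CPM of C1q-high macrophages. Among these tumour myeloid cells Cx3cr1 alone did not single out the members.

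Cd300e, an activating receptor of the CD300 family, stood at 141 CPM (114 to 171) and 181 CPM (137 to 235) and had 0 UMIs in classical monocytes of both libraries, which allows up to 6.05 and 6.22 CPM. Its relative Cd300ld stood at 205 and 268 CPM, against 50.4 and 37.3 CPM. Slc12a2, a sodium, potassium and chloride cotransporter, stood at 280 and 494 CPM, against 6.05 and 10.4 CPM. Eno3, the muscle form of enolase, stood at 200 and 229 CPM, against 0 UMIs in vehicle-labelled and 4.14 CPM in tamoxifen-labelled classical monocytes. Cd300e, Slc12a2 and Eno3 reached at most 10.4 CPM in any of the 3 myeloid groups compared, in either library. Cd300ld was less restricted, at 53.2 and 35.6 CPM in C1q-high macrophages and 35.4 and 14.7 CPM in alveolar macrophages.

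Lipid-handling genes were part of the same set. Cd36, a fatty acid and oxidised lipoprotein receptor, stood at 489 CPM (439 to 543) and 685 CPM (596 to 784), against 18.2 and 8.29 CPM in classical monocytes and 171 and 128 CPM in alveolar macrophages. Fabp4, a fatty acid binding protein, stood at 182 and 223 CPM, close to the 183 CPM of vehicle-labelled alveolar macrophages. Pparg, the lipid-sensing nuclear receptor, stood at 206 and 194 CPM in members, 4.03 and 14.5 CPM in classical monocytes and 276 and 262 CPM in alveolar macrophages. Of 10 scavenging and lipid genes considered, Cd36, Abcg1 and Pparg were above classical monocytes and Msr1, Abca1, Trem2 and Mrc1 below. Fabp4 and Pparg were thus shared with alveolar macrophages, and Msr1, a scavenger receptor, was lower in members (45.5 and 54.9 CPM) than in classical monocytes (321 and 346 CPM).

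**Figure D2:**
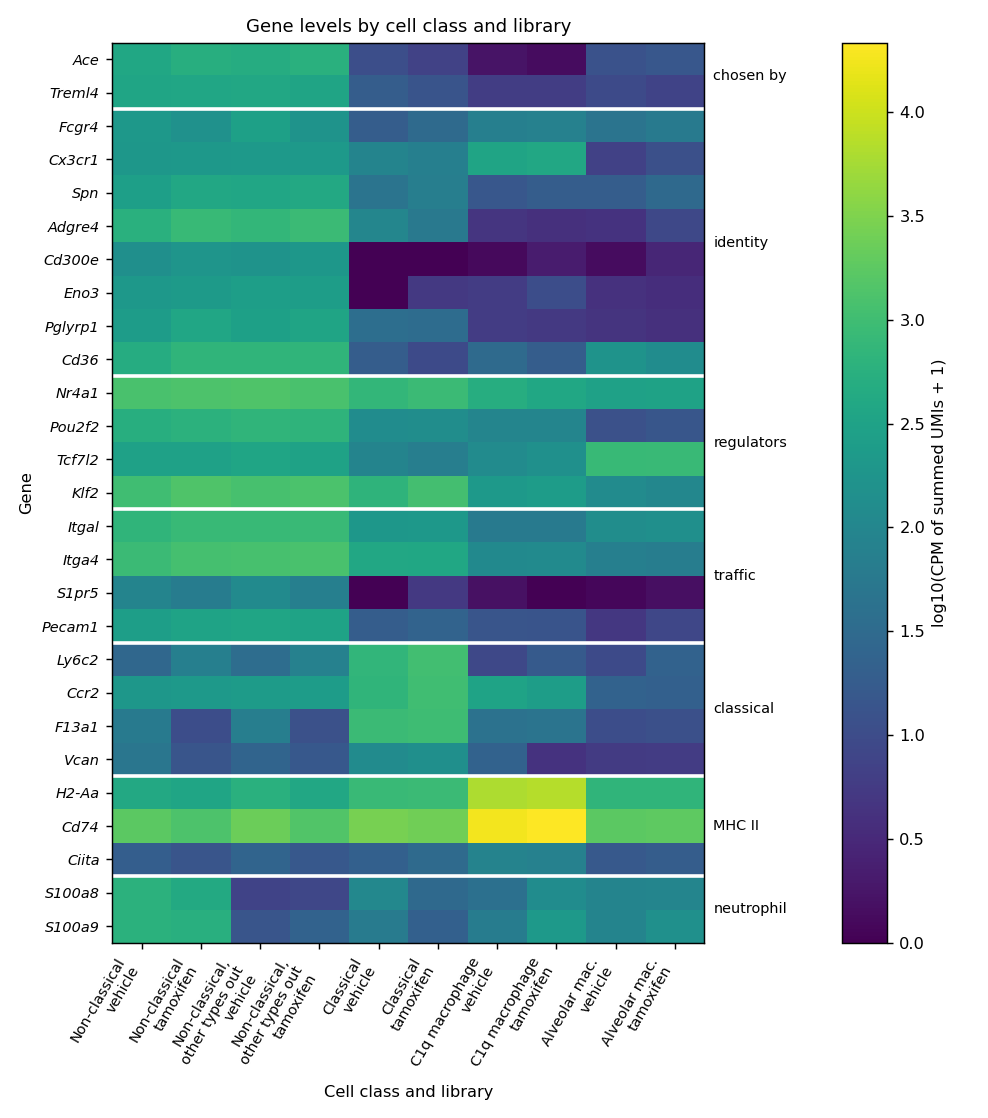
Heat map of gene levels as log10 of CPM plus 1, with genes in rows and the cell groups of the vehicle-labelled and tamoxifen-labelled libraries in columns. Adgre4, Spn, Cd300e and Eno3 are highest in members, Cx3cr1 is highest in C1q-high macrophages, and S100a8 and S100a9 are high in all members and low once the other-type cells are left out.

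A wider search asked which genes of at least 100 CPM in members lay at least 4-fold above all 3 groups in both libraries. It found 18 of 1743 genes (1.03%) in all members and 20 of 1735 (1.15%) in the trimmed members. The 20 genes with the largest of their smallest log2 ratios included 11 that were on a list, namely Cd300e (5.97), Slc12a2 (4.75), Eno3 (4.46), Pecam1 (3.77), G0s2, Pglyrp1 (2.71), Adgre4, Spn, Dusp16 (2.17), Pou2f2 and Cd300ld. Genes outside the lists were Setbp1 (3.82), Heg1 (2.90), Hes1 (2.35), Ceacam1 (2.33), Cyfip2 (2.29), Traf1 (2.05), Grk3 (2.04), Smpdl3b (2.04) and Chn2 (1.92). Heg1 encodes a membrane protein of the endothelial surface, Ceacam1 a homophilic adhesion receptor, Hes1 a target of Notch signalling, and Grk3 a kinase that desensitises receptors. Heg1 stood at 202 and 197 CPM, against 26.2 and 12.4 CPM in classical monocytes. Ceacam1 stood at 246 and 359 CPM, against 44.4 and 70.4 CPM. One gene of the 20, G0s2, was a neutrophil transcript in these cells: its ratio of 3.51 was 0.43 in the trimmed members.

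Regulators were compared from a list of 12 transcription factors. Pou2f2 (Oct-2) and Tcf7l2 were above classical monocytes. Pou2f2 stood at 530 CPM (478 to 587) and 614 CPM (530 to 708), against 127 and 135 CPM in classical monocytes, 92.1 CPM in C1q-high macrophages of both libraries and 10.9 and 13.4 CPM in alveolar macrophages. Tcf7l2 stood at 307 and 304 CPM, between classical monocytes (88.8 and 70.4 CPM) and alveolar macrophages (821 and 857 CPM). Nr4a1 (chromosome 15, 101254269 to 101274795, plus strand) stood at 1225 CPM (1145 to 1310) and 1338 CPM (1212 to 1473), against 744 and 889 CPM in classical monocytes. Its log2 ratio of 0.72 and 0.59 was thus under 2-fold, although the intervals lay apart. Spi1, the factor that binds the PU box, stood at 648 and 795 CPM, against 545 and 572 CPM. In the trimmed members 3 of the 12 factors were above.

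Genes of vascular traffic were next. Of 14 considered, Itgal, Itga4, Itgax, Pecam1 and S1pr5 were above classical monocytes. Ccr1, a receptor of inflammatory chemokines, was below, at 56.9 and 51.7 CPM against 246 and 298 CPM. Itgal, the alpha chain of LFA-1, stood at 675 CPM (616 to 739) and 821 CPM (723 to 928), against 196 and 203 CPM. Itga4, the alpha chain of VLA-4, stood at 904 and 1147 CPM, against 399 and 381 CPM. S1pr5, a sphingosine-1-phosphate receptor needed for monocytes to leave the marrow, stood at 88.1 and 64.6 CPM, against 0 UMIs and 4.14 CPM. Pecam1 (CD31), against which the depletion beads are directed, stood at 263 and 323 CPM, against 18.2 and 22.8 CPM. The alpha chains Itgal and Itga4 were thus past 2-fold in both libraries, whereas Itgb2, the beta chain of LFA-1, had log2 ratios of 0.75 and 0.90 and was not.

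The classical programme was low. Of 14 genes of a classical list, 10 were below classical monocytes and none above, in all and in trimmed members, against 3.12% of all genes. Ly6c2 and Ccr2 are among these 10, but they chose the classical monocytes, so their direction was set in advance. They are given for description: Ly6c2 stood at 27.0 and 74.3 CPM, against 724 and 1061 CPM. Ccr2 stood at 199 and 216 CPM, against 694 and 1007 CPM. F13a1, a coagulation factor subunit, stood at 59.7 and 9.69 CPM, against 896 and 974 CPM. Plac8, by contrast, was high in both kinds of monocyte at 2058 and 3341 CPM, against 2500 and 2629 CPM, and stood at 6.09 and 12.4 CPM in C1q-high macrophages.

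At least 4-fold below classical monocytes in both libraries were 12 of 1680 genes (0.714%), and 20 in the trimmed members. Nrg1, a ligand of the ErbB receptors, stood at 78.2 and 58.2 CPM in members, against 1120 and 957 CPM in classical monocytes, where 36 of 42 and 34 of 44 cells held it. Mmp8, a collagenase, stood at 4.26 and 3.23 CPM, against 115 and 170 CPM. Arg1, arginase, stood at 8.53 and 3.23 CPM, against 353 and 120 CPM, but 5 and 3 classical monocytes held all of the latter. Mmp8 was in 23 of 42 and 22 of 44 classical monocytes, so Nrg1 and Mmp8 were spread over many cells and Arg1 over few. F13a1, Ly6c2, Ccl2, Mt1, Msr1 and Slfn5 were also among the 10 lowest, Ly6c2 by the choice of the classical monocytes.

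Lists of other immune functions follow. Of 9 genes considered from a list of immune checkpoint and other immune receptor genes, Cd274, Lilra5 and Lair1 were above classical monocytes and none below. Over all genes 4.78% were above. Cd274 (PD-L1) stood at 301 CPM (262 to 345) and 426 CPM (357 to 506), against 72.6 and 31.1 CPM in classical monocytes and 165 and 173 CPM in alveolar macrophages. Of 6 Fc receptor genes, Fcgr4 was above and Fcgr1, the high-affinity receptor, below, at 9.95 and 35.5 CPM against 76.7 and 122 CPM. Fcgr3, at 232 and 233 CPM against 391 and 423 CPM, was under 2-fold. The trimmed members had 2 Fc receptor genes above and 1 below.

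Among 8 chemokine genes Ccl2, Ccl7 and Cxcl16 were below and none above. Ccl2, which draws Ccr2-bearing monocytes, stood at 35.5 and 25.8 CPM, against 299 and 282 CPM. Among 7 cytokine genes Vegfa and Osm were below. Il1b stood at 2886 and 1745 CPM, against 3185 and 2248 CPM, and the trimmed members held 1905 and 939 CPM. Of 8 survival genes, 8 class I antigen presentation genes, 14 immediate early genes and 2 cell cycle genes none was past 2-fold in both libraries. Counts moved in the trimmed members, where 5 chemokine and 3 cytokine genes and 1 immediate early gene were below and 1 class I gene was above. Mki67, a proliferation marker, had 5 and 0 UMIs in members.

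Class II antigen presentation depended on the cells counted. Of 8 genes, H2-Aa, H2-Ab1, H2-Eb1, H2-DMa and H2-DMb1 were below classical monocytes in all members and none was in the trimmed members. H2-Aa stood at 409 and 359 CPM in all members and at 563 and 399 CPM in trimmed members, against 855 and 899 CPM in classical monocytes and 6243 and 7035 CPM in C1q-high macrophages. Members were thus low beside C1q-high macrophages on either count, and the difference from classical monocytes was not stable. Beside alveolar macrophages they were not low. The class II list summed to 3963 and 3525 CPM in members, 5129 and 3772 CPM in trimmed members and 3947 and 4032 CPM in alveolar macrophages. Of 7 interferon response genes Slfn5 was below, and of 10 pattern recognition genes Tlr2 was (3 genes in the trimmed members), and none of either list was above. The complement gene Cfp, properdin, stood at 35.5 and 22.6 CPM, against 101 and 110 CPM.

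The share of cells with a UMI was read after thinning each cell to 2000 UMIs, which left out 1 vehicle-labelled member. Adgre4 was seen in 64.8% of members in the vehicle-labelled library and 76.3% in the tamoxifen-labelled library, and Spn in 35.2% and 65.8%. Cx3cr1 was seen in 23.9% (14.6 to 35.5; exact Clopper-Pearson interval, 17 of 71 cells) and 42.1% (26.3 to 59.2; 16 of 38 cells), and Fcgr4 in 29.6% and 26.3%. Unthinned, the shares were 83.3% and 92.1% for Adgre4, 70.8% and 86.8% for Spn, 59.7% and 73.7% for Cx3cr1 and 61.1% and 47.4% for Fcgr4. In 655 and 728 epithelial cells thinned alike (median depth 24438.5 and 28208 UMIs), which should lack these genes, Cx3cr1 was seen in 0.458% and 0.824%, and Spn and Fcgr4 each in 0.153% and 0.137%. Adgre4 was seen in 0 of them, which allows up to 0.458% and 0.412%. The shares in members were far above this background for the 4 genes, while each gene was absent from many members at this depth.

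Members made up 0.986% (0.772 to 1.24) of the kept cells in the vehicle-labelled pre-depletion library, 72 of 7304, and 0.610% (0.432 to 0.837) in the tamoxifen-labelled one, 38 of 6227. The ratio of vehicle-labelled to tamoxifen-labelled share was 1.62 (1.08 to 2.46). In the trimmed members, 55 and 34 cells, it was 1.38 (0.883 to 2.18), an interval that includes equal shares. As a share of all cells with Csf1r, members were 2.68% of 2685 and 1.58% of 2411. Classical monocytes went the other way, with 42 and 44 cells and a ratio of tamoxifen-labelled to vehicle-labelled share of 1.23 (0.787 to 1.92). Of both kinds of monocyte together, members were 63.2% of 114 and 46.3% of 82. After CD45 and CD31 depletion the rule found 0 of 7043 and 0 of 7511 cells, which allows shares of up to 0.0426% and 0.0399%. With 1 suspension per group, treatment and preparation cannot be told apart.

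Gene levels were then compared between the tamoxifen-labelled and the vehicle-labelled members. A gene was counted if it reached 50 CPM in either library and differed at least 2-fold, which is a rule of size and not a test. Of 4092 genes, 75 (1.83%) were higher and 322 (7.87%) lower in the tamoxifen-labelled library, around a median log2 ratio of 0.02. In the trimmed members 66 of 3927 (1.68%) were higher and 174 (4.43%) lower, and 44 of the higher and 99 of the lower genes were in both sets. When each cell was given equal weight, by averaging CPM over cells, 112 genes were higher and 213 lower. In classical monocytes, of similar cell number, 62 of 3919 (1.58%) were higher and 127 (3.24%) lower. In the larger C1q-high macrophage group 12 and 16 of 3398 genes (0.353% and 0.471%) were so, and among alveolar macrophages 4 and 17 of 3475 (0.115% and 0.489%). The small monocyte groups had the larger counts.

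None of the 16 identity genes was counted by this rule in either direction, in all or in trimmed members. Over all genes 9.70% were counted in all members and 6.11% in trimmed members. At such shares few genes of so short a list would be counted in any case. The median log2 ratio of tamoxifen-labelled over vehicle-labelled was 0.41 in all members and 0.15 in trimmed members. Single ratios in all members ran from -0.45 for Fcgr4 (interval -0.96 to 0.03) to 0.82 for Slc12a2 (0.51 to 1.13). In trimmed members Fcgr4 stood at 287 and 167 CPM, a log2 ratio of -0.78 (-1.30 to -0.29), and Adgre4 at 738 and 896 CPM, a log2 ratio of 0.28 (0.04 to 0.52). Cx3cr1 was level on both counts, with log2 ratios of 0.04 and 0.06. Fcgr4 was thus the identity gene that was lower in the tamoxifen-labelled library by most, and it stayed under 2-fold. None of the 12 transcription factors was counted in either direction, which is also near the share over all genes. Nr4a1 had a log2 ratio of 0.13 (-0.05 to 0.30).

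Of 11 genes of the classical list considered, 2 were higher and 2 lower, in all and in trimmed members. Over all genes 1.83% were higher and 7.87% lower in all members. Chil3, a chitinase-like secreted protein, stood at 178 CPM (148 to 212) in vehicle-labelled and 659 CPM (572 to 756) in tamoxifen-labelled members, a log2 ratio of 1.89 (1.56 to 2.22). In trimmed members the log2 ratio was 1.72 (1.36 to 2.10). Chil3 UMIs were present in 36 of 72 and 28 of 38 members, and alveolar macrophages held 9146 and 6211 CPM. Ly6c2 had 19 and 23 UMIs and a log2 ratio of 1.43 (0.52 to 2.42). Those UMIs lay in only 10 of 72 and 6 of 38 members, or 13.9% and 15.8%, with up to 8 and 7 in 1 cell. F13a1, with 42 and 3 UMIs, and Fn1, fibronectin, were lower, and Fn1 stood at 2168 and 368 CPM in all members but at 680 and 330 CPM in trimmed members. By summed UMIs Chil3 was thus higher and Fn1 lower with and without the cells that held other transcripts. In trimmed members, however, 6 of 55 vehicle-labelled cells held 61.9% of the Fn1 UMIs. The median of Fn1 per trimmed member was 0 and 1 UMIs, so its lower sum does not describe the typical cell. Fn1 was also counted as lower in C1q-high and alveolar macrophages.

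**Figure D3:**
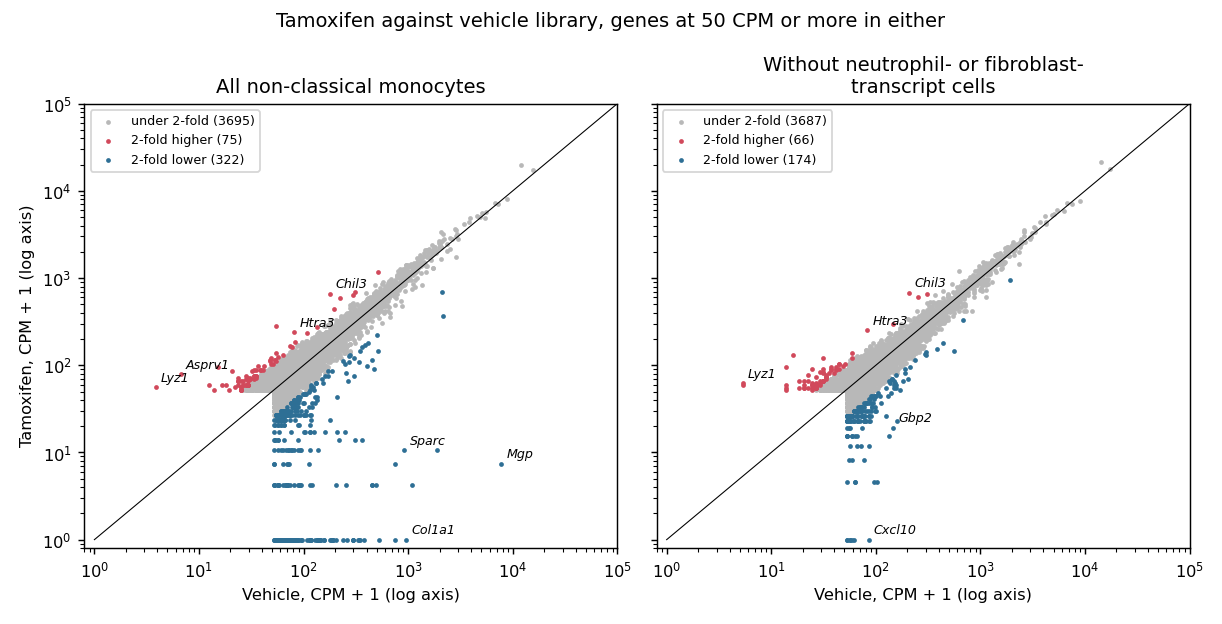
Each point is a gene, with CPM plus 1 in vehicle-labelled members on the horizontal axis and in tamoxifen-labelled members on the vertical axis, both on log scales, for all members and for trimmed members. Genes past the size rule number 75 higher and 322 lower in all members and 66 and 174 in trimmed members, and named genes are marked.

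By the bound of the interval nearest to 0, the 10 leading genes that were higher in tamoxifen-labelled members were Asprv1, Lyz1, Chil3, Ifi27l2a, Ppfibp2, Htra3, Fabp5, Sftpc, Phlpp1 and Dhx40. Ifi27l2a, an interferon-induced gene, stood at 222 and 585 CPM, a log2 ratio of 1.40 (1.08 to 1.72), which was 1.26 (0.92 to 1.62) in trimmed members. Classical monocytes showed 420 and 1227 CPM of Ifi27l2a. Htra3, a secreted protease, stood at 79.6 and 239 CPM, a log2 ratio of 1.57 (1.07 to 2.11), and at 4.03 and 51.8 CPM in classical monocytes. Both genes were therefore higher in the tamoxifen-labelled library in both kinds of monocyte. Ifi27l2a was also higher in C1q-high macrophages (log2 ratio 1.16, 1.05 to 1.27), alveolar macrophages (0.84) and all other kept cells (0.84). Htra3 had ratios of 0.18, -0.41 and -0.34 there. Fabp5, another fatty acid binding protein, stood at 307 and 698 CPM in members and at 319 and 160 CPM in classical monocytes. In trimmed members Fabp5 stood at 367 and 646 CPM, a log2 ratio of 0.81 (0.50 to 1.13), which is under 2-fold. The difference between members and classical monocytes was not tested. Some of the 10 rested on 1 cell: all 24 Asprv1 UMIs, 16 of 17 Lyz1 UMIs and 94 of 197 Sftpc UMIs of the tamoxifen-labelled library came from a single cell each. Lyz1 is also nearly identical to Lyz2, and how reads were divided between them is not given in the sources used here.

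The 10 leading genes that were lower in tamoxifen-labelled members were Mgp, Col1a1, Spp1, Timp3, Igfbp7, Tagln, Sparc, Col1a2, Tnc and Timp1. They are matrix and smooth muscle or fibroblast genes. Mgp stood at 7757 and 6.46 CPM and Col1a1 at 951 CPM and 0 UMIs. Between 98.9% and 100% of the vehicle-labelled UMIs of each of the 10 lay in the 2 members with fibroblast transcripts. These 10 values thus describe those 2 cells.

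In trimmed members the leading higher genes were Lyz1, Ppfibp2, Chil3, Upp1, Htra3, Ifi27l2a, Sftpc, Hgf, Trak2 and Grsf1. Upp1, uridine phosphorylase, stood at 30.2 and 120 CPM. The leading lower genes were Cxcl10, Egr2, Il7r, Cd209a, Gas7, Il6, Sntb1, Grap2, Gbp2 and Rasgef1b. Single vehicle-labelled cells held 38 of 39 Cxcl10 UMIs, 21 of 27 Il7r UMIs, 24 of 26 Cd209a UMIs and 56 of 67 Gbp2 UMIs. They also held 41 of 61 Grap2 UMIs, 39 of 74 Rasgef1b UMIs and 16 of 28 Egr2 UMIs. Il6 was spread more widely, with 24 UMIs in 10 of the 55 vehicle-labelled trimmed members and 0 UMIs in tamoxifen-labelled ones. Several of the trimmed differences were thus also set by single cells.

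Several immediate early and inflammatory genes were lower in the tamoxifen-labelled library. Of 14 immediate early genes Fosb, Egr1 and Egr2 were counted as lower in all members, Ier3 in addition in trimmed members, and none as higher, beside 7.87% lower over all genes. Egr1, a growth-factor-induced transcription factor, stood at 473 and 90.5 CPM, a log2 ratio of -2.37 (-3.00 to -1.83), and at 179 and 65.3 CPM in trimmed members. Fosb stood at 453 and 113 CPM and in trimmed members at 235 and 112 CPM. In classical monocytes Egr1 and Dnajb1 were the counted ones of this list, both lower.

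Of 6 chemokine genes Ccl3, Ccl4, Cxcl2 and Cxcl10 were lower in all members, and in trimmed members Cxcl10 was. Cxcl2, a neutrophil attractant, stood at 2100 and 698 CPM in all members and at 824 and 417 CPM in trimmed members. Of 7 cytokine genes Il1a was lower and Osm higher in all members, whereas Il1b, Il6 and Pdgfb were lower in trimmed members. Il1b had a log2 ratio of -0.73 (-0.87 to -0.59) in all members and -1.02 (-1.23 to -0.82) in trimmed members. The chemokine counts thus depended on the cells that trimming removed, while Il1b was lower on both counts. Nlrp3, a sensor of the inflammasome that matures IL-1β, stood at 306 and 119 CPM in all members and 149 and 54.4 CPM in trimmed members.

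Other lists held few counted genes, beside 1.83% higher and 7.87% lower over all genes in all members. Of 8 interferon response genes Ifi27l2a was higher and Gbp2 lower, and the list's median log2 ratio was 0.44 in members, 0.69 in classical monocytes, 0.72 in C1q-high macrophages and 0.50 in alveolar macrophages. None of 9 class I presentation genes was counted, with a median of 0.39 in all and 0.20 in trimmed members. H2-K1, a class I heavy chain, stood at 833 and 1254 CPM. None of 8 class II genes was counted in all members, and H2-Eb1, with 298 and 131 CPM, was lower in trimmed members. None of 9 checkpoint, 8 survival or 2 cell cycle genes was counted, and Cd274 had a log2 ratio of 0.50 (0.18 to 0.82) in all members and -0.06 (-0.43 to 0.30) in trimmed members.

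Members varied among themselves in class II antigen presentation. The summed level of the class II list per trimmed member ran from 170 to 26137 CPM (median 1533) in the vehicle-labelled library and from 219 to 20827 CPM (median 1484) in the tamoxifen-labelled one. Members were described in 3 bands of this sum, 5000 CPM or more, from 1000 to 5000 and under 1000 CPM, with limits chosen after the data were seen. The bands held 15, 22 and 18 vehicle-labelled and 5, 23 and 6 tamoxifen-labelled cells. They are ranges of a score and not cell types, and 4 and 4 vehicle-labelled and 0 and 7 tamoxifen-labelled cells lay within 20% of the upper and the lower limit.

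From the high to the low band Ccr2 stood at 425, 246 and 29.4 CPM in vehicle-labelled and at 568, 215 and 21.5 CPM in tamoxifen-labelled members. Fcgr4 ran the other way, at 91.6, 292 and 500 CPM and at 21.0, 132 and 452 CPM. After each cell was thinned to 2000 UMIs and the bands drawn again, Fcgr4 stood at 71.4, 310 and 750 CPM and at 0, 238 and 357 CPM. Members rich in class II transcripts thus carried more Ccr2 and less Fcgr4 in both libraries. The high and low bands of the tamoxifen-labelled library held 5 and 6 cells. Their lowest values, 21.0 CPM of Fcgr4 and 21.5 CPM of Ccr2, therefore rest on very few UMIs, and so do the low thinned values of Fcgr4. Nr4a1 stood at 1249, 1363 and 1537 CPM and at 442, 1320 and 1809 CPM, and Pou2f2 at 445, 602 and 1066 CPM and at 589, 644 and 797 CPM. Cd36 was lowest in the high band of both libraries, at 209 and 168 CPM, and reached 1088 and 770 CPM in the middle band. Il1b stood at 2930, 2011 and 618 CPM and at 1052, 941 and 818 CPM.

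Marker lists of other cells were read in the same bands. Dendritic cell markers had a median of 0 UMIs per cell in every band, with at most 27 in 1 cell, a vehicle-labelled member that had Treml4 without Ace and none of the independent markers. Classical monocyte markers had a median of 17, 2.5 and 0 UMIs per cell in vehicle-labelled and 6, 1 and 2 in tamoxifen-labelled members. Markers of C1q-high macrophages had medians of 7, 5 and 4.5 and of 4, 3 and 4 UMIs. The high band thus also held the most classical monocyte transcripts, and the part of such transcripts in the gradient was not tested.

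**Figure D4:**
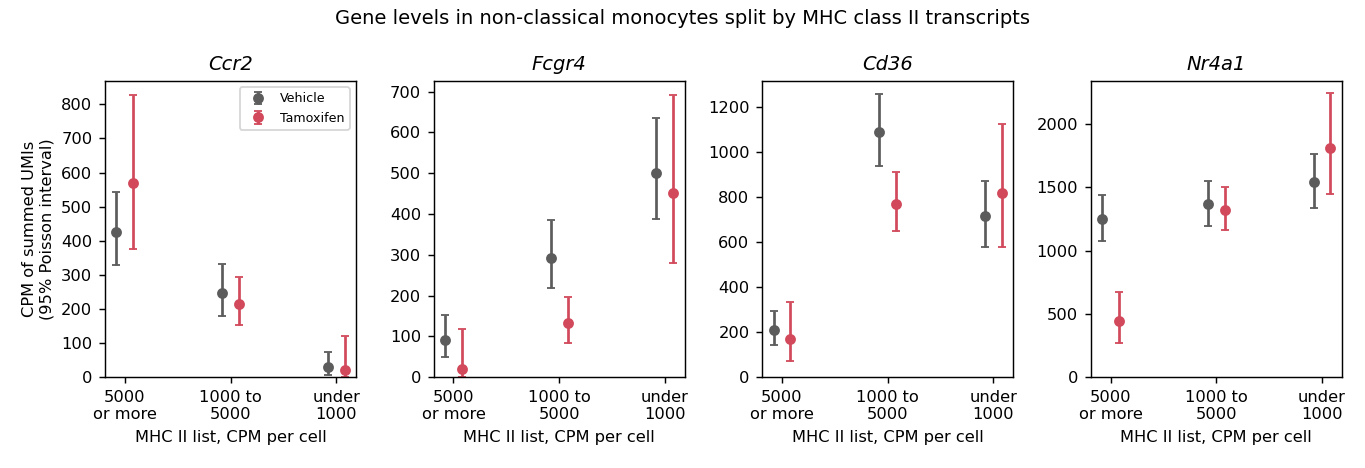
Levels of Ccr2, Fcgr4, Cd36 and Nr4a1 in CPM in trimmed members, by band of the summed class II level (5000 or more, 1000 to 5000 and under 1000 CPM), for the vehicle-labelled and tamoxifen-labelled libraries, with 95% Poisson intervals that cover counting error. Ccr2 goes from 425 to 29.4 CPM and from 568 to 21.5 CPM towards the low band, while Fcgr4 goes from 91.6 to 500 CPM and from 21.0 to 452 CPM.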

How the data were processed

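The deposited files are matrices of raw UMI counts, with genes in rows and barcodes in columns, made by the authors with version 3 of the 10x Genomics 3′ chemistry, per the labels' protocols, and Cell Ranger 7.0.1, per the file headers. The submitters' processing notes give Cell Ranger 7.2.0 and mm10 instead. The annotation release, cell calling and the use of intronic reads and of strand are not given in the sources used here. Of 32289 features 32235 matched GENCODE release M21, which supplied coordinates.

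Groups were taken from the labels. UMIs were summed over the members of a library and scaled to CPM, with exact Poisson intervals. Log2 ratios used a pseudocount of 1 CPM and an exact conditional binomial interval. Scripts ran in Python 3.11.15 with numpy 2.4.6, scipy 1.17.1, pandas 2.3.3 and Scrublet in scanpy 1.11.5 (expected doublet rate 0.06), and were tested on simulated data. No doublets were removed from the main values. Epithelial background cells held at least 2 Epcam UMIs.

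Named genes were those of 17 gene lists and 16 marker lists, plus the leaders of each comparison: 10 per direction by the interval bound nearest to 0, 20 by the smallest ratio to the other groups, and 10 lowest against classical monocytes. Mitochondrial, ribosomal, immunoglobulin and unnamed genes, Xist and Y-linked genes were left out of the leaders. The members and all lists were chosen with earlier results of these data known. One allele of the genotype and the values of some listed genes are not reported here.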

Additional observations from a re-analysis of the deposited data

Results flagged for a closer look

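In 3 genes the library ratio went opposite ways in non-classical and classical monocytes, each past 2-fold with an interval that excluded 0. Dnm1l, a mitochondrial fission enzyme, had a log2 ratio of tamoxifen-labelled over vehicle-labelled of 1.15 in members and -1.55 in classical monocytes. Taf4b, a subunit of a general transcription factor, had -1.39 in members and 1.82 in classical monocytes. Stambpl1, a deubiquitinase, had -2.02 in members and 1.06 in classical monocytes. The counts were small: in members Dnm1l had 18 UMIs in each library, Taf4b 37 and 6, and Stambpl1 39 and 4. With 1 library per group the difference between the cell groups was not tested, and the intervals cover counting error only.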

How the results depend on the processing

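No paired analysis was possible because each group has 1 library. The member share in the vehicle-labelled library was 1.26% with a minimum of 2 UMIs of Ace plus Treml4, 0.712% with a minimum of 5 and 0.753% in trimmed members. Against the main counts of 75 genes higher and 322 lower in the tamoxifen-labelled library, lower genes numbered 213 by the mean over cells (112 higher), 191 with the minimum of 5 (100 higher), 154 without the fibroblast-transcript members (60 higher), 382 without the neutrophil-transcript members (94 higher) and 174 in trimmed members. Without a CPM minimum 1212 were higher and 4423 lower, a 4-fold limit left 6 and 176, and a pseudocount of 10 CPM left 44 higher. Sparc turned from -6.43 to 3.16 with the minimum of 5, 3.42 without fibroblast-transcript members and 3.57 in trimmed members, since its vehicle-labelled UMIs all lay in 2 cells. Genes at least 4-fold below classical monocytes numbered 20 in trimmed members. Shares with a UMI depended on depth: thinned to 4000 UMIs, vehicle-labelled members had 40.9% for Cx3cr1, 78.8% for Adgre4 and 59.1% for Spn, and tamoxifen-labelled members 44.1% for Fcgr4 and 91.2% for Adgre4. Not thinned, the shares were 59.7% and 73.7% for Cx3cr1, 61.1% and 47.4% for Fcgr4, 83.3% and 92.1% for Adgre4 and 70.8% and 86.8% for Spn. Leaving out cells with a Scrublet score over 0.25 kept all 30 named ratios against other myeloid cells and all 20 between libraries within their limits. It removed 1 member, so it could change the member sums little. Of the 20 between libraries, 8 stayed within limits, 11 moved and 1 reversed with the minimum of 5. In trimmed members 7 stayed, 12 moved and 1 reversed. Of the 30 against other myeloid cells, 29 and 28 stayed under these settings. With 309501 UMIs in 38 members, genes near 50 CPM rest on few UMIs and cannot be read singly.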
